A study of Mus musculus with 4 samples.

Results

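Passenger strand microRNAs were taken as the microRNAs on the array whose name ends in a star, and there were 116 of them among 700 microRNAs. A microRNA hairpin is cut by Dicer into a short duplex, of which Argonaute keeps the guide strand while the other, the passenger or star strand, is mostly degraded. The star was given, when the hairpins were named, to the strand recovered less often, so it records earlier abundance in other tissues and not the abundance in these tumours. Of the 116 stars, 104 had a guide of the same name on the array, and the other 12 were read alone. Among those 12, 9 carry a hairpin number, as in miR-24-2*, and find a guide once that number is removed.

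The RNA came from tumours of 4T1 cells, a line derived from a mouse mammary carcinoma, which spreads on its own from the mammary gland. In all, 20 female mice, given by the labels as Balb/s, received 50000 cells orthotopically. At a tumour size of 1 cm3, 10 mice received sham radiation and 10 received 10 Gy to the primary tumour, after which the primary tumour was removed by mastectomy and metastases grew to the end point. The 4 groups were the primary tumour after sham radiation, metastases of sham-treated mice, the primary tumour after 10 Gy, and metastases of mice whose primary tumour had received 10 Gy. All groups shared the cell line, the strain and the injection, and both metastasis groups followed mastectomy. The organ that held the metastases, the ages of the mice and the number of mice behind each RNA were not given in the labels. Each group was 1 array of 2 µg total RNA with 5 spots per microRNA, so no group had a replicate and no test was made. The ± on a level is the SD over 5 spots of 1 array. The ± on a log2 difference is the SD of the 5 spot differences between 2 arrays. The ± on a ratio, or on a change of ratio, combines the spot SDs of the strands and arrays that enter it.

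A microRNA was called detected when at least 3 of its 5 spots lay above the 95th percentile of the 180 empty spots of that array. It was called well above empty spots when, in addition, its mean was at least 2 times the median empty spot. Levels are spot means minus that median, in scanner intensity units, and they were not scaled between arrays. The median empty spot was 171 and 177 on the sham primary and sham metastasis arrays, 417 on the 10 Gy primary array and 252 on the 10 Gy metastasis array. The higher background after 10 Gy raised the detection floor to 57.7 intensity units on the primary array, against 18.1 to 24.1 on the other 3, and its part in lower star counts there was not tested. Markers of cell types differed between the arrays. Of 6 epithelial microRNAs fixed as markers of mammary carcinoma cells (the miR-200 family and miR-205), 1 was detected on each primary tumour array, with a summed level of 64.2 after sham and 39.95 after 10 Gy, and all 6 on each metastasis array, with 6994 and 3833. The 4 smooth muscle and fibroblast markers, all detected on every array, summed to 1637 and 3017 in primary tumours and 16267 and 11934 in metastases. The 6 muscle markers, 4 of them detected on every array, ranged in sum from 390 in sham metastases to 12998 in 10 Gy metastases. The endothelial markers miR-126-3p and miR-126-5p summed to 6031 and 4282 in sham and 10 Gy primary tumours and 32134 and 22410 in the matching metastases. The erythroid markers miR-451 and miR-144 summed to 2234 and 599 in those primary tumours and 18510 and 10351 in metastases. The lymphocyte marker miR-150 read 79.4 and 43.8 against 3591 and 864, the myeloid marker miR-223 read 6792 and 256 against 7354 and 4050, and the hepatocyte marker miR-122 read 6.98 and 7.04 against 53.8 and 717. Of these, miR-150 was not detected in the 10 Gy primary tumour, and miR-122 was detected in neither primary tumour. The sums above include members that were not detected. Whether cell makeup accounts for any star difference below was not tested, and fewer cells of a type and less RNA per cell cannot be told apart.

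The sequences below, read from the deposited array tables, are shown because most of the star signal and most of the differences came from these 16 strands. Each is written 5′ to 3′ with the seed, bases 2 to 8, in capitals. The first set was read on all or most arrays.
miR-140*: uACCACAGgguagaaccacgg
let-7d*: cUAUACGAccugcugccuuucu
miR-674*: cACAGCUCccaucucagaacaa
miR-31*: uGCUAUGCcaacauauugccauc

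The second set was brightest in the sham primary tumour.
miR-16*: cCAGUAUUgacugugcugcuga
miR-214*: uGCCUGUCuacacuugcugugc
miR-15a*: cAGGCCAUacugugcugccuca
miR-877*: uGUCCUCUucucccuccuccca
miR-1982*: uUGGGAGGguccuggggagg
miR-150*: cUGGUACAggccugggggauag
miR-485*: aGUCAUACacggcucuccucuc
miR-467b*: aUAUACAUacacacaccaacac

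Another set was brightest in the sham metastases.
miR-30a*: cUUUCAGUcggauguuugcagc
miR-24-2*: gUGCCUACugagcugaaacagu
miR-322*: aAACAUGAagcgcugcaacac
miR-28*: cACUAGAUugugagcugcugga

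For comparison, the guides of 3 hairpins whose star outshone them are shown, since the duplex partner has another seed and so other potential targets.
miR-140: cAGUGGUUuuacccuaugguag
miR-15a: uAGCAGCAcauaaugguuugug
miR-214: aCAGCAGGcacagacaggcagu

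By exact match to RefSeq hairpins (GRCm38.p6), miR-140* lay at chr8:107551288-107551308 on the plus strand within Wwp2. The stars miR-15a* and miR-16* lay together on the minus strand within the span of the non-coding gene Dleu2, at chr14:61632038-61632059 and chr14:61631894-61631915. The strand miR-214* lay at chr1:162223397-162223418, plus strand, within the span of both Dnm3 and the non-coding gene Dnm3os. The mirtrons, hairpins made from short spliced introns without Drosha, were miR-877* at chr17:35960731-35960752 (minus strand, Abcf1) and miR-1982* at chr10:80828808-80828827 (plus strand, Oaz1).

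Stars differed from guides in base content, a property that the naming did not use. The first base was U in 23 of 116 stars (19.8%) and in 56 of the 104 guides (53.8%), and it was C in 41 stars (35.3%) and 11 guides (10.6%). Argonaute is known to favour a 5′ U or A on the strand it keeps, and all of these counts describe the array's content, not the tumours. The median G+C content was 50% for stars and 43.5% for guides at the same median length of 22 bases. An exact mature match in RefSeq was found for 102 stars, 63 of them from the 3′ arm and 39 from the 5′ arm. Of the matched stars detected on any array, 45 were 3′ and 18 were 5′, and of those never detected 18 were 3′ and 21 were 5′.

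Stars were dim. They were detected 45 times of 116 (38.8%) in the sham primary tumour, 66 (56.9%) in sham metastases, 11 (9.48%) in the 10 Gy primary tumour and 40 (34.5%) in 10 Gy metastases. Over all 700 microRNAs the detected shares on the same arrays were 48.1%, 65.6%, 26.6% and 48.4%. Fewer stars than other microRNAs were therefore read on every array, and the gap was widest on the 10 Gy primary array, where 175 of 584 microRNAs without a star (29.97%) were detected. Stars well above empty spots numbered 12, 12, 1 and 2 on the 4 arrays, in the same order, against 24.6%, 26.4%, 13.6% and 19.4% of all microRNAs. That rule asked for a level of at least 171, 177, 417 and 252, so its bar was higher on the 10 Gy arrays. The part of this bar in the lower counts there was not tested. Detected stars together carried 0.805% of the signal above background in the sham primary tumour, 0.732% in sham metastases, 0.345% in the 10 Gy primary tumour and 0.530% in 10 Gy metastases. On the 4 arrays, 45 stars were never detected, 11 were detected on every array, and 19 were well above empty spots on at least 1 array. Of the 584 microRNAs without a star, these counts were 163, 169 and 203.

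**Figure D1:**
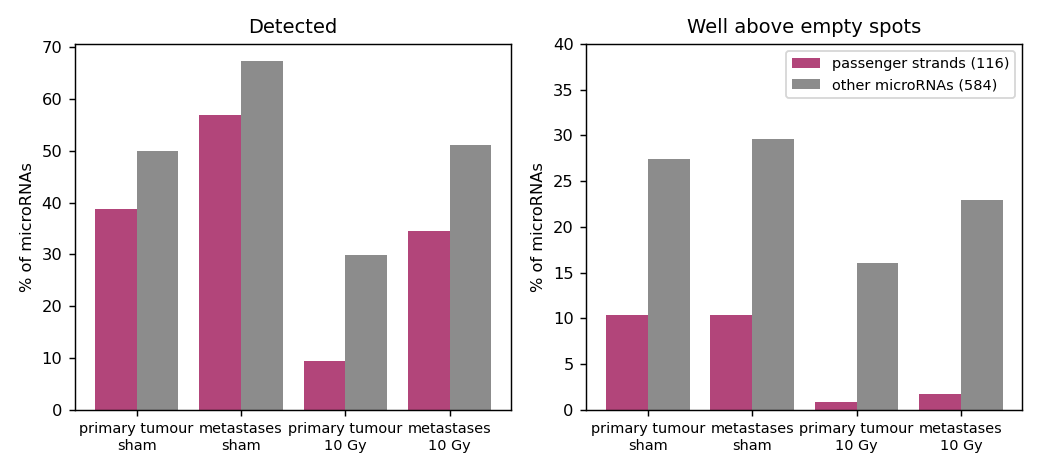
Share of the 116 passenger strands and of the 584 other microRNAs that were detected (left) or well above empty spots (right) on each of the 4 arrays, in % from 0, 1 array per group. Stars lie below the other microRNAs on every array, from 9.48% to 56.9% detected.

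The only star well above empty spots on all 4 arrays was miR-140*, while 88 of the other microRNAs were. The miR-140 hairpin is best known from cartilage, and its star strand is often the more abundant one there. Its level was 546 ± 55 in the sham primary tumour, 1275 ± 44 in sham metastases, 781 ± 119 in the 10 Gy primary tumour and 974 ± 118 in 10 Gy metastases. On these unscaled levels it was highest in sham metastases, while on the normalised log2 levels described further on it was highest in the 10 Gy primary tumour, at 10.82, against 10.04 in 10 Gy metastases, 9.55 in sham metastases and 9.20 in the sham primary tumour. The let-7d* strand, from a hairpin of the let-7 growth-restraining family, read 469 ± 80, 1516 ± 119, 86.8 ± 51.0 and 503 ± 102 in that order. The let-7d* level was thus highest in sham metastases and lowest in the 10 Gy primary tumour. The unscaled level of miR-674* ranged from 144 ± 46 in 10 Gy metastases to 285 ± 31 in sham metastases. The star of miR-31, a microRNA studied as a suppressor of breast cancer metastasis, read 166 ± 24 and 258 ± 12 on the sham primary and metastasis arrays, and 76.6 ± 24.3 and 77.4 ± 32.8 on the 10 Gy arrays.

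A second set of stars was brightest in the sham primary tumour. The miR-15a/16 hairpins sit in the Dleu2 locus and their guides restrain the cell cycle and Bcl2. The star miR-16* read 1072 ± 174 in the sham primary tumour but 44.8 ± 9.3 in sham metastases, 66.4 ± 34.0 in the 10 Gy primary tumour and 48.5 ± 26.5 in 10 Gy metastases. Its neighbour miR-15a* read 644 ± 96, 43.0 ± 11.6, 230 ± 90 and 50.5 ± 33.9 in that order. Both were thus brightest in the sham primary tumour, and miR-15a* was next brightest in the 10 Gy primary tumour. These stars share the run ACUGUGCU, found in no other microRNA on the array, and share CUGUGC with miR-214*. That shorter run is also in miR-1944 and miR-210, which were not brightest in the sham primary tumour, and in miR-673-3p, not detected there. Whether such runs let a probe read another strand was not tested.

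The star miR-214*, from a hairpin expressed in fibroblasts and other mesenchymal cells, read 1022 ± 120 in the sham primary tumour and 25.7 ± 11.0, 72.7 ± 47.8 and 36.9 ± 37.2 in sham metastases, 10 Gy primary tumour and 10 Gy metastases. The mirtron star miR-877* read 918 ± 76 in the sham primary tumour, 48.5 ± 5.0 in sham metastases and 34.5 ± 28.5 in 10 Gy metastases, and was not detected in the 10 Gy primary tumour. The other mirtron strand, miR-1982*, read 755 ± 89, 246 ± 32 and 47.2 ± 30.01 on those 3 arrays and was also not detected in the 10 Gy primary tumour. Both mirtron stars, from host genes on different chromosomes, thus had their highest level in the sham primary tumour.

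The star of the lymphocyte microRNA miR-150 read 434.4 ± 51.7 in the sham primary tumour, 241 ± 25 in sham metastases and 44.0 ± 29.4 in 10 Gy metastases, and was not detected in the 10 Gy primary tumour. The star miR-485*, from the imprinted Dlk1-Dio3 cluster, was detected on every array, at 416 ± 74, 149 ± 23, 107 ± 17 and 64.5 ± 33.9. The repeat family stars miR-467a* and miR-467b*, which share the seed UAUACAU with miR-467e*, read 194 ± 53 and 319 ± 42 in the sham primary tumour and 47.6 ± 22.1 and 53.9 ± 19.9 in sham metastases. Their sequences are near-identical, so the signals of the pair cannot be told apart. In 10 Gy metastases miR-467b* was detected at 28.6 ± 32.7 and miR-467a* was not, and neither was detected in the 10 Gy primary tumour.

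A further set was brightest in sham metastases. The miR-30 family restrains mesenchymal genes, and its stars miR-30a* and miR-30e* share the seed UUUCAGU. The star miR-30a* read 42.9 ± 5.0 in the sham primary tumour, 491 ± 47 in sham metastases and 171 ± 44 in 10 Gy metastases. The star miR-30e* was detected only in metastases, at 194 ± 36 after sham and 37.7 ± 35.0 after 10 Gy. Neither was detected in the 10 Gy primary tumour, so both metastasis arrays lay above both primary tumour arrays for miR-30a*. The strand miR-24-2* read 72.7 ± 8.0, 351 ± 12 and 138 ± 36 in sham primary tumour, sham metastases and 10 Gy metastases. The stars miR-322*, miR-28* and miR-34c*, the last from a p53-induced hairpin, read 217 ± 23, 187 ± 42 and 211 ± 42 in sham metastases, and from 40.8 to 116 in the sham primary tumour. In 10 Gy metastases these 3 read between 57.5 and 98.9, and in the 10 Gy primary tumour none was detected.

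**Figure D2:**
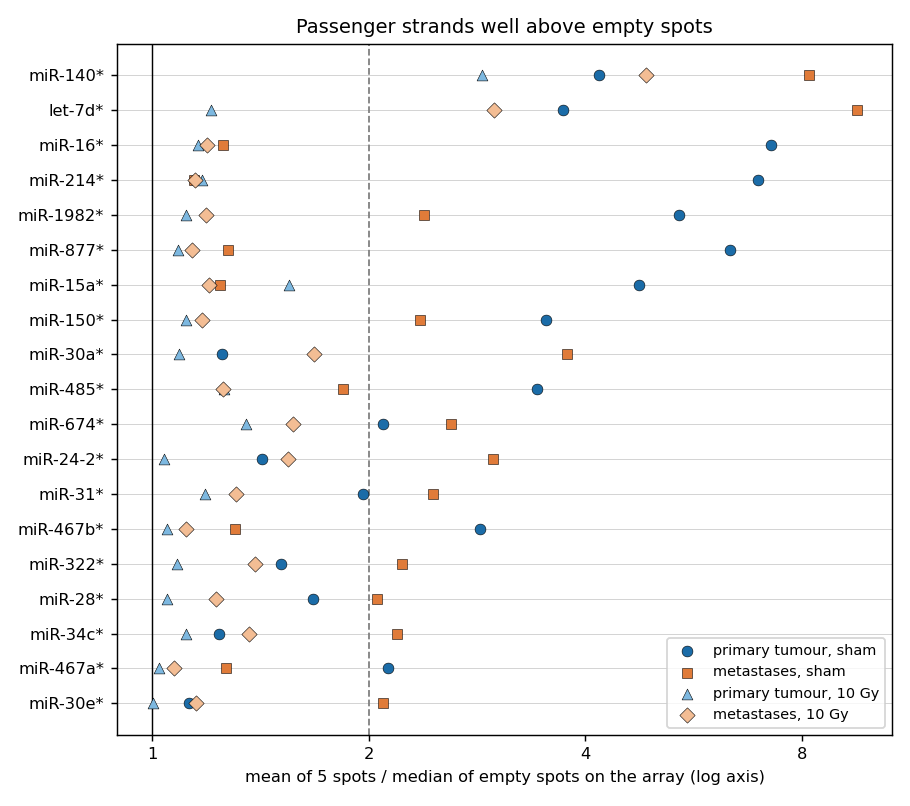
Ratio of the mean of 5 spots to the median empty spot on the same array (log axis) for the 19 stars well above empty spots on at least 1 array, 1 symbol per array. The dashed line marks a ratio of 2, and for 9 of the stars, such as miR-16* and miR-877*, the circle of the sham primary tumour stands to the right of the other 3 symbols.

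Just outside the set of 19 were miR-712* at 118, 160, 126 and 91.1, and let-7b* at 108, 119, 130 and 68.0, in the order sham primary tumour, sham metastases, 10 Gy primary tumour, 10 Gy metastases. Just inside was miR-28*, with a spot mean 2.06 times the empty median in sham metastases. The star of miR-21, the microRNA of the series title, was close to the floor, at 60.6 ± 13.7 in the sham primary tumour and 33.1 ± 26.8 in sham metastases, and it was not detected on either 10 Gy array. The miR-21 guide was among the brightest features, at 37657 in the sham primary tumour and 43661 in sham metastases, so that miR-21* was 0.161% ± 0.037 and 0.0757% ± 0.0615 of its guide. On the 10 Gy arrays its share was bounded at 0.163% in the primary tumour and 0.0826% in metastases.

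For differences between arrays, spots were corrected for background, log2 transformed after adding 50, and quantile normalised over the 700 microRNAs, and a change of 2-fold was used as the mark. A star detected on 1 array of a pair counts by the smallest difference that the other array's floor allows. The added 50 shrinks differences of dim features, stars more than guides. The highest and lowest stars named for each comparison were taken from stars detected on both arrays whose spots did not overlap between them.

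Metastases and primary tumours were compared first without radiation. Of 70 stars detected on at least 1 of the sham arrays, 2 were at least 2-fold higher in metastases, miR-30a* and miR-24-2*, and 8 were at least 2-fold lower. Over all 473 microRNAs detected on either array, 11.8% were higher and 10.6% were lower, so the share of stars that were higher lay below the background and the share lower, 11.4%, was near it. Of the guides of the 104 pairs, 77 were detected on at least 1 sham array, with 28 at least 2-fold higher in metastases and 1 lower. These guides are not the partners of the 70 stars 1 for 1. Among the 27 pairs with both strands detected on both arrays, 2 had star and guide each changed at least 2-fold in opposite directions. The median difference over features detected on both arrays was -0.07 for 41 stars, 0.75 for 60 guides and -0.01 for all microRNAs. Without normalization the counts were 6 higher and 9 lower for stars, and 36 higher and 2 lower for guides.

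The lowest values in sham metastases relative to the sham primary tumour were miR-214* at -3.27 ± 0.29 log2, miR-16* at -3.15 ± 0.24, miR-877* at -2.85 ± 0.12, miR-15a* at -2.52 ± 0.13 and miR-1982* at -1.64 ± 0.11. The highest were miR-30a* at 1.61 ± 0.10, miR-24-2* at 1.03 ± 0.04, let-7d* at 0.80 ± 0.10, miR-34c* at 0.77 ± 0.26 and miR-322* at 0.45 ± 0.14. These 10 were named only from stars whose 5 spots on one array lay wholly above those on the other. That separation was a rule of choice and not a finding, and it covers spot error and not the spread between tumours. Among stars read on 1 array only, miR-30e* was at least 1.84-fold and miR-199b* at least 1.51-fold higher in metastases, while miR-99b* was brighter in the primary tumour by at least 1.79-fold and the miR-200a star by at least 1.43-fold.

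The contrast of metastases with primary tumours was repeated among the 10 Gy arrays, where 40 stars could be read. One star was at least 2-fold higher, let-7d* at 1.25 ± 0.41 (0.64 with 75th percentile scaling), and 1 was at least 2-fold lower, miR-15a* at -1.69 ± 0.25. Over all 344 microRNAs 10.2% were higher and 11.0% lower. The next lowest were let-7b* at -0.99 ± 0.40, miR-712* at -0.87 ± 0.29 and miR-485* at -0.76 ± 0.30. The value for miR-140* was -0.78 ± 0.16, but it turned to 0.26 without normalization. The median over the 11 stars detected on both was -0.71, against -0.33 for all microRNAs and 0.07 for the 41 guides. The bounds were at least 1.95-fold higher for miR-30a* and at least 1.59-fold higher for miR-24-2*, which were also the highest among the sham arrays.

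Radiation was compared next within the primary tumour. Of 45 stars, 1 was at least 2-fold higher after 10 Gy, miR-140* at 1.62 ± 0.30, and 6 were at least 2-fold lower, against 14.7% higher and 13.0% lower over 339 microRNAs. The lower stars were led by miR-16* at -2.34 ± 0.22, miR-214* at -2.20 ± 0.29 and let-7d* at -1.06 ± 0.39 (-0.09 with 75th percentile scaling), and by bounds of at least 5.55-fold for miR-877* and at least 4.34-fold for miR-1982*. Smaller positive values were let-7b* at 0.96 ± 0.53, miR-712* at 0.95 ± 0.25, let-7f* at 0.62 ± 0.49 and miR-674* at 0.73 ± 0.10, of which the last turned to -0.11 without normalization. The guides gave 15 higher and 4 lower of 62. That split depended on the scaling, since without normalization it was 2 higher and 12 lower, while stars were then 0 higher and 9 lower. This comparison and that of sham metastases with the sham primary tumour share the sham primary array, so the low values of miR-16*, miR-214*, miR-877* and miR-1982* in both are not separate observations.

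Radiation of the primary tumour was compared last in the metastases. None of 67 stars passed 2-fold in either direction, where 2.29% of 481 microRNAs were higher and 2.49% lower, so a count of 0 stars lay near the background. Without normalization 5 stars were lower, and with 75th percentile scaling 4 were higher. Among stars whose spots did not overlap between the arrays, the lowest were miR-150* at -0.66 ± 0.29, miR-1982* at -0.63 ± 0.40, let-7d* at -0.61 ± 0.19 and miR-31* at -0.42 ± 0.32. Only miR-140* was higher by that rule, at 0.49 ± 0.16, and it turned to -0.35 without normalization. With overlapping spots, miR-27b* stood at 0.50 ± 0.86 and miR-30e* at -0.60 ± 0.38. Bounds were small, at least 1.13-fold higher for miR-467e*, and at least 1.36-fold lower for miR-92a* and 1.25-fold lower for miR-135a*, and in none of these 3 were the spots of the arrays apart. The median over 39 stars was -0.01, against -0.04 for 67 guides and 0 for all 317 microRNAs.

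**Figure D3:**
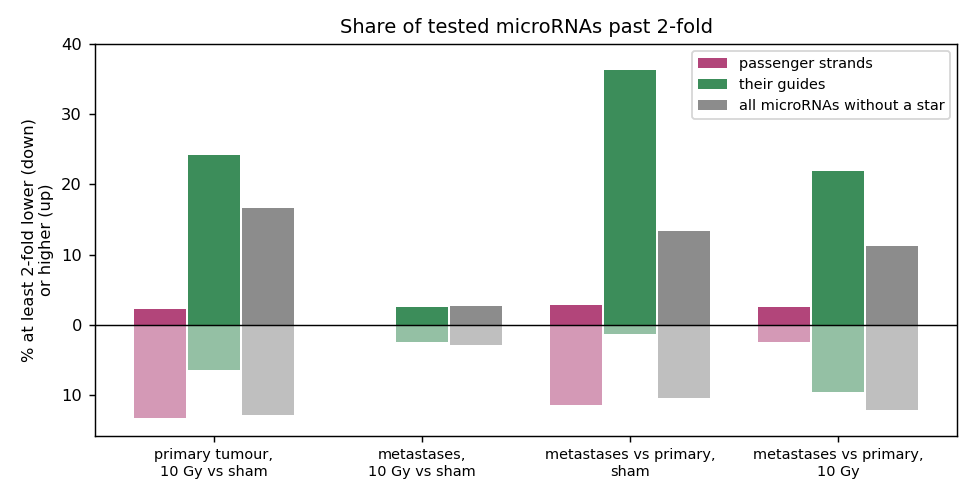
Share of tested stars (magenta), tested guides of the star pairs (green) and all microRNAs without a star (grey) that were at least 2-fold higher (bars up) or lower (bars down) in each of the 4 comparisons, 1 array per group. The stars and guides tested are not matched pair by pair. In sham metastases against sham primary tumour 28 of 77 guides but 2 of 70 stars are higher.

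The pattern of the sham primary tumour was described on the levels after normalization. Among the 12 stars well above empty spots there, 6 were at least 2-fold above each of the other 3 arrays, miR-16*, miR-1982*, miR-214*, miR-467a*, miR-467b* and miR-877*. Over all 172 microRNAs well above empty spots there the share was 18.6%, and it was 26 of 160 among those without a star. These stars entered through their level on that same array, so the count is a description, and miR-467a* and miR-467b* cannot be told apart within it. Without normalization 8 of the 12 stars and 35 of the 160 microRNAs without a star met it in the sham primary tumour. In sham metastases the same rule was then met by 3 of 12 stars and 30 of 173 microRNAs without a star.

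The ratio of star to guide was taken on each array from the levels above empty spots, so a scaling of the whole array cancels. It compares the signals of different probes, whose affinities are unknown, so a ratio on 1 array does not give the molar ratio of the strands, and changes of a pair's ratio between arrays are the firmer value. Both strands were detected in 29 of 104 pairs in the sham primary tumour, 52 in sham metastases, 8 in the 10 Gy primary tumour and 32 in 10 Gy metastases. The median ratio in those pairs was 3.61%, 5.19%, 1.20% and 3.86%. These medians rest on different pairs, since only 8 pairs were read on all 4 arrays. Over those same 8 pairs the median was 9.01% in the sham primary tumour and 1.40% in sham metastases, which turns the order of these arrays. The guide was read without its star in 33, 23, 33 and 41 pairs, and the star without its guide in 13, 8, 3 and 3.

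Among pairs with both strands detected, the star outshone its guide in 5 in the sham primary tumour, 5 in sham metastases, 1 in the 10 Gy primary tumour and 4 in 10 Gy metastases. In the sham primary tumour these were miR-877* at 925% ± 348 of its guide, miR-150* at 547% ± 99, miR-214* at 131% ± 19, miR-15a* at 118% ± 25 and miR-28* at 104% ± 21. The last 2 did not differ from 100% by more than their spot SD. In sham metastases the star miR-34c* was at 378% ± 100 of its guide, and in 10 Gy metastases at 356% ± 286. The miR-140 guide was not detected on any array, and miR-140* was at least 26.4, 70.2, 13.5 and 40.4 times the highest level its guide could have had, in sham primary tumour, sham metastases, 10 Gy primary tumour and 10 Gy metastases. For miR-485* this bound was at least 20.1 times in the sham primary tumour and 8.22 times in sham metastases. For miR-467a* and miR-467b* it was at least 9.36 and 15.4 times in the sham primary tumour.

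In several hairpins the brighter strand was the star in the sham primary tumour and the guide in metastases. For miR-150* the ratio was 547% ± 99 in the sham primary tumour, 6.71% ± 0.76 in sham metastases and 5.09% ± 3.47 in 10 Gy metastases. Its guide, a lymphocyte marker, read 79.4 in the sham primary tumour and 3591 in sham metastases, so the guide differed by more than the star. For miR-214* the ratio was 131% ± 19, 1.30% ± 0.56, 4.02% ± 2.74 and 2.56% ± 2.63 on the 4 arrays, while its guide read 781, 1970, 1810 and 1442, so here the star differed by more than the guide. For miR-15a* the ratio was 118% ± 25 and 335% ± 222 in the sham and 10 Gy primary tumours, and 1.49% ± 0.41 and 3.74% ± 2.65 in the metastases. The miR-15a guide read 545 and 68.8 in primary tumours and 2891 and 1350 in metastases, and the star went the opposite way. The miR-16 guide, unlike these, was brighter than its star on every array. For miR-16* the ratio was 14.9% ± 2.5 in the sham primary tumour, 0.255% ± 0.053 in sham metastases, 1.33% ± 0.69 in the 10 Gy primary tumour and 0.488% ± 0.273 in 10 Gy metastases.

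The opposite order held for let-7d*, at 2.32% ± 0.42 of its guide in the sham primary tumour, 5.62% ± 0.46 in sham metastases, 0.886% ± 0.541 in the 10 Gy primary tumour and 3.09% ± 0.70 in 10 Gy metastases. Both metastasis arrays thus had a higher let-7d* share than the primary tumour of the same treatment. The let-7b* and let-7f* ratios stayed between 0.295% and 1.07%. The ratio of miR-674* ranged from 13.3% ± 4.8 to 20.4% ± 2.4, a span within 2-fold. For miR-31* it was 3.16% ± 0.46 and 3.96% ± 0.24 on the sham arrays and 0.811% ± 0.259 and 1.72% ± 0.76 on the 10 Gy arrays. The miR-30a* ratio was 7.26% ± 1.57 in the sham primary tumour, 5.59% ± 0.54 in sham metastases and 3.67% ± 1.06 in 10 Gy metastases, so star and guide there moved together, the guide from 590 to 8781 between the sham arrays.

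Counted over pairs with both strands detected on both arrays, the ratio was at least 2-fold lower in sham metastases than in the sham primary tumour in 11 of 27 pairs and at least 2-fold higher in 3, with a median log2 change of -0.79. The largest were miR-214* at -6.65 ± 0.65, miR-150* at -6.35 ± 0.31, miR-15a* at -6.31 ± 0.50 and miR-16* at -5.87 ± 0.39, and on the other side let-7d* at 1.28 ± 0.29, miR-712* at 1.14 ± 0.57, miR-183* at 1.10 ± 0.44 and miR-382* at 0.81 ± 1.19, the last within its spot error. Among the 10 Gy arrays 8 pairs could be read, of which 4 were lower and 2 higher in metastases. There miR-15a* changed by -6.48 ± 1.40, let-7f* by -1.67 ± 1.25, miR-16* by -1.44 ± 1.10, let-7b* by -1.14 ± 0.88, miR-31* by 1.09 ± 0.78 and let-7d* by 1.80 ± 0.94. Of the 8 pairs, 7 had the same direction in both contrasts of metastases with primary tumour, which share no array, and miR-15a* and miR-16* passed 2-fold downward and let-7d* upward in both. Among the 7, let-7b* at -0.03 ± 0.44 in the sham contrast and miR-214* at -0.65 ± 1.78 in the 10 Gy contrast were within their spot error. The count is a description, with no share over other features beside it.

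After 10 Gy in the primary tumour 8 pairs could be read, with 4 ratios at least 2-fold lower and 3 at least 2-fold higher. The lower ones were miR-214* at -5.03 ± 1.01, miR-16* at -3.49 ± 0.79, miR-31* at -1.96 ± 0.51 and let-7d* at -1.39 ± 0.92, and the higher ones miR-15a* at 1.503 ± 1.002, let-7f* at 1.47 ± 1.01 and let-7b* at 1.02 ± 0.81. In metastases 30 pairs could be read and 4 passed 2-fold. These were miR-22* at -1.42 ± 2.19, miR-31* at -1.20 ± 0.64, miR-27b* at 1.34 ± 1.88 and miR-15a* at 1.33 ± 1.10, of which miR-22* and miR-27b* were within their spot error. Smaller changes there were let-7d* at -0.87 ± 0.35, miR-674* at -0.62 ± 0.55, miR-214* at 0.97 ± 1.60 and miR-16* at 0.94 ± 0.86. The primary tumour and metastasis comparisons share no array. In both, the miR-31* ratio was at least 2-fold lower after 10 Gy and the miR-15a* ratio at least 2-fold higher. The let-7d* ratio was lower in both but under 2-fold in metastases. In the primary tumour miR-15a* itself fell from 644 to 230, and its guide from 545 to 68.8 ± 36.7, near the floor of 57.7. In metastases miR-15a* read 43.0 after sham and 50.5 ± 33.9 after 10 Gy, and its guide 2891 and 1350. The normalised differences of miR-31* and its guide were 0.04 and 1.68 in the primary tumour, and -0.42 and 0.14 in metastases.

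**Figure D4:**
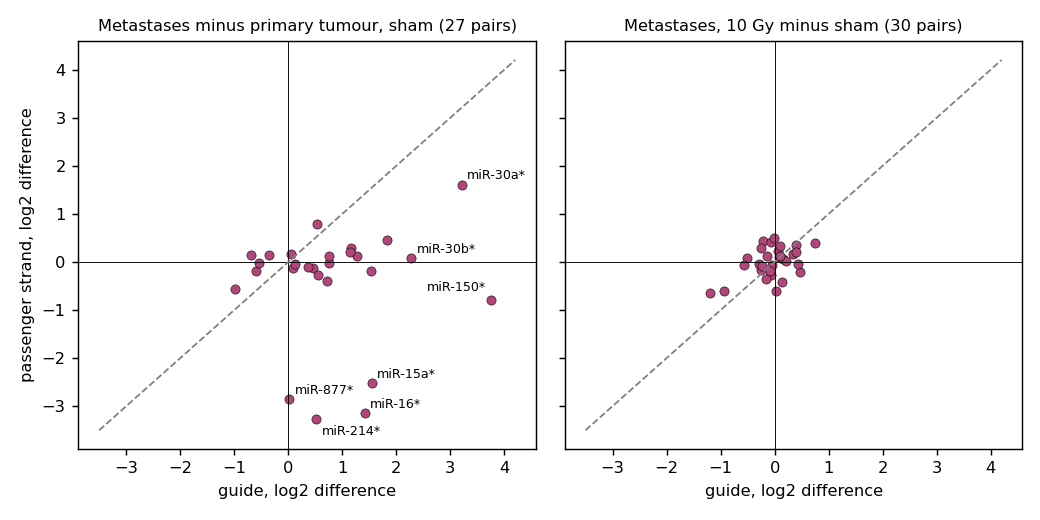
Log2 difference of the star (vertical) against that of its guide (horizontal) after normalization, 1 point per pair with both strands detected on both arrays, for sham metastases minus sham primary tumour (27 pairs) and for metastases of 10 Gy minus sham mice (30 pairs). In the left panel miR-214*, miR-16*, miR-877* and miR-15a* lie far below the dashed line of equal change, and in the right panel no star passes 1 in size.

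By family, the 7 let-7 stars gave 3, 6, 3 and 3 detected in sham primary tumour, sham metastases, 10 Gy primary tumour and 10 Gy metastases, with summed levels of 659, 1789, 306 and 627, of which let-7d* was most except in the 10 Gy primary tumour. All 5 miR-30 stars were detected in both metastasis groups, with sums of 875 and 317, against 3 and 0 of them in primary tumours, where the detected share of all microRNAs was 48.1% and 26.6%, against 65.6% and 48.4% in metastases. The count of 0 was read over the higher floor of 57.7 on the 10 Gy primary array. The 3 miR-15/16 stars summed to 1742 in the sham primary tumour, 123 in sham metastases, 296.6 in the 10 Gy primary tumour and 116 in 10 Gy metastases, and 2 of the 3 were at least 2-fold lower in sham metastases than in the sham primary tumour, where miR-16* and miR-15a* also stood at -3.22 and -2.59 without normalization. Both mirtron stars were at least 2-fold lower in that comparison, with a summed level of 1673 in the sham primary tumour and 295 in sham metastases. Over all 473 microRNAs tested there 10.6% were lower. These miR-15/16 and mirtron stars were already named above as the lowest of that comparison, so the family counts are not separate observations.

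Of 8 stars from hairpins of the proliferation-driving miR-17-92 cluster and related clusters, 3, 5, 0 and 2 were detected, near the shares of all stars on these arrays, none was well above empty spots, and none passed 2-fold in any comparison. Of 4 miR-200 family stars, 1 was detected on each sham array and 0 on the 10 Gy arrays, although miR-200c read 3685 in sham metastases, where miR-200c* was at most 0.492% of it. Of 13 Dlk1-Dio3 stars 6 were never detected, and 1, miR-485*, was well above empty spots, against 45 and 19 of all 116 stars. Among the 584 microRNAs without a star these counts were 163 and 203. The muscle star miR-133a* was not detected on any array while its guide read from 51.2 to 1212, which bounds the star at 1.99% of the guide in 10 Gy metastases. The miR-29 and Hox cluster stars, 3 in each list, had at most 2 and 1 detected on any array. Of 4 stars of leukocyte microRNAs, miR-150* alone was well above empty spots. Detected shares of all 700 microRNAs were 48.1% and 65.6% on the sham primary and metastasis arrays, and 26.6% and 48.4% on the matching 10 Gy arrays. Counts in such short lists are a description only.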

How the data were processed

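RNA of 4 groups was read on 1 one-colour (Cy3) LC Sciences array each. The deposited scanner tables give spot intensity per the file headers, as a mean density for each spot with no background removed, and the authors' value table gives an intensity per microRNA. Set against the scanner means, the authors' table has lower values on each array, by 161 to 380 intensity units at the median, and its own scaling was not given in the sources used here. It lists 47, 49, 44 and 98 stars and served as an alternative only.

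All 116 stars were counted over 700 microRNAs with 5 spots each. Differences used limma 3.58.1 in R 4.3.3, with normexp (offset 50), log2, the mean of 5 spots and quantile normalization. On simulated data 174 of 200 changed features were detected on both arrays. These features were drawn only from the brighter detected microRNAs of the sham metastasis array, where the median detected star read 48.0. Dim stars were therefore not covered. The spot SD does not cover tumours, and the number of arrays limits the precision. Stars well above empty spots, pairs with the star brighter, and the extremes of each comparison were named by rule. The members and lists were chosen with earlier results of these data known. Alternatives covered the detection threshold, background correction, normalization, offset and pairing by hairpin number. Sequences matched RefSeq (GRCm38.p6) for 102 of 116 stars and 88 of 104 guides as mature strands.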

Additional observations from a re-analysis of the deposited data

How the results depend on the processing

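No sign of a difference of at least 2-fold turned under any alternative, and of 148 alternative values for counts and medians 102 stayed close and 46 moved. Of the alternative values for single named stars and ratios, 84 moved and 70 stayed close, and without normalization 23 of 29 moved. No paired analysis was possible because each group holds 1 array and no result comes from a test. The cause of each move below was not tested.

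Detection with all 5 spots above the threshold left 13 stars in 10 Gy metastases and 6 in the 10 Gy primary tumour. With a trend of the empty spots along chip rows removed, chosen after seeing the data, 17 were detected in the 10 Gy primary tumour. At 3 times the empty median, 3 stars were well above it in sham metastases, 1 in 10 Gy metastases and 0 in the 10 Gy primary tumour.

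Stars at least 2-fold higher in sham metastases than in the sham primary tumour were 6 without normalization. Among the 10 Gy arrays that count was 0 with cyclic loess or 75th percentile scaling, 2 with an offset of 16 or the row trend removed, and 4 with measured differences in place of bounds, and the lower count was 9 with 75th percentile scaling and 2 with an offset of 16. After 10 Gy in the primary tumour, stars at least 2-fold higher were 0 without normalization, 5 with 75th percentile scaling and 3 with an offset of 16, and the lower count was 3 with 75th percentile scaling. In metastases after 10 Gy, 75th percentile scaling gave 4 higher and no normalization gave 5 lower.

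The star median log2 difference depended on the scaling. With 75th percentile scaling it was 0.97 for 10 Gy against sham in the primary tumour, 0.51 in metastases, -0.39 for metastases against primary tumour among sham arrays and -1.33 among 10 Gy arrays. That scaling moved the median of all microRNAs to 0.78, 0.29, -0.22 and -0.77. Without normalization the star median was -0.45 for the primary tumour after 10 Gy and -0.38 for metastases against primary tumour among 10 Gy arrays. With all 5 spots required it was 0.84 for the primary tumour after 10 Gy. The authors' deposited table gave 0.30 among sham arrays and -0.42 among 10 Gy arrays for metastases against primary tumour.

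The median star to guide ratio rose with less background removed. With normexp and an offset of 50 it was 14.3%, 8.70%, 2.90% and 13.3% in sham primary tumour, sham metastases, 10 Gy primary tumour and 10 Gy metastases, and with no background correction 16.7%, 14.5%, 7.36% and 25.9%. Hairpin numbers removed gave 4.01% in sham metastases, and the pairs detected on all 4 arrays gave 9.01% and 1.40% on the sham arrays. Ratios changed at least 2-fold numbered, without background correction, 3 for radiation of the primary tumour and 9 for radiation in metastases, with 8 in the latter by the authors' deposited table, and 3 among 10 Gy arrays with normexp, without correction or by the authors' deposited table.

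Low signal limits most stars. On the 10 Gy primary array, 60 of 104 pairs had neither strand detected.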
